A study of Mus musculus with 24 samples.

Results

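AP-1 (activator protein 1) and the other immediate early transcription factors were followed in mouse glioma cells and mouse macrophages exposed to an immunostimulatory CpG oligonucleotide, alone or with carbon nanotubes. The 10 genes described here were taken by symbol from the deposited read-count table, where they are 10 of 21669 gene rows: Fos, Fosb, Fosl1, Fosl2, Jun, Junb, Jund, Egr1, Atf3 and Batf. The outcome is poly(A) RNA sequencing of whole cultures in 24 libraries.

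AP-1 is a dimer of basic leucine zipper proteins. A FOS-family protein binds DNA only with a partner, usually a JUN-family protein, while JUN proteins can also pair with each other and with members of the ATF and BATF families. Many of these genes are transcribed within minutes of a stimulus through MAP kinases and serum response factor, and in macrophages Toll-like receptor signalling, to which the CpG-sensing receptor TLR9 belongs, reaches AP-1 beside NF-κB. In gliomas the FOS-related protein Fra-1 has been studied for its part in migration and in the expression of matrix-degrading enzymes.

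K-Luc is a luciferase-expressing derivative of the murine glioma line KR158B, of C57BL/6 origin. RAW-Blue is the murine macrophage line RAW 264.7 with a stably integrated secreted alkaline phosphatase reporter that responds to NF-κB and AP-1. Both were grown for a migration assay around culture inserts, K-Luc cells inside and outside the insert and RAW-Blue cells in its chambers alone. After 24 h of adhesion they were treated for 17 to 19 h (K-Luc) or 47 to 50 h (RAW-Blue). The groups in each line were CpG, which is the oligonucleotide CpG-28 at 10 µg/mL; SWNT/LP, single-walled carbon nanotubes coated with methoxy-capped lipid-PEG, each at 10 µg/mL; CpG+SWNT/LP, the same coated nanotubes with free CpG-28 beside them, all at 10 µg/mL; SWNT/CpG, nanotubes dispersed in CpG-28 itself, each at 10 µg/mL; and Untreated, which received 40 µL of water in 2 mL of medium. There were 3 libraries in each treated K-Luc group and 2 in the untreated one, and 2 in each RAW-Blue group. An oligonucleotide lacking CpG was not among the groups, so responses to CpG-28 and to DNA as such cannot be told apart. The labels do not say whether replicates were separate cultures, so p-values measure the spread between these samples, which may be technical.

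Libraries held 13318636 to 24130359 counts. Of the K-Luc libraries, 3 (replicate 1 of SWNT/CpG, of CpG+SWNT/LP and of Untreated) came from one sequencing run and the rest, with all RAW-Blue libraries, from another; run was a term in every K-Luc fit. Replicate 1 stood apart in the 4 treated K-Luc groups: chi-square per degree of freedom over genes was 7.92 to 14.5 for pairs that included it and 2.63 to 3.44 for pairs that did not. The only untreated K-Luc pair was at 8.73. In RAW-Blue cells the 2 untreated libraries differed most, at 43.2 per degree of freedom against 1.95 to 5.78 in the other groups. Of the 13 macrophage markers, 12 were in the table; they summed to 7088 to 8314 CPM (counts scaled to library size by TMM, for markers over both lines together and for all other genes within a line) in RAW-Blue libraries and to 11.2 to 17.1 CPM in K-Luc libraries. K-Luc libraries carried the glial progenitor transcripts Sox2 at 88.9 to 141 CPM and Nes at 160 to 239 CPM, but Olig1 and Olig2 had no count in any of them, and Gfap and S100b did not pass 0.509 and 0.292 CPM.

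Levels in untreated cells. The lines differed in which AP-1 genes were high. Compared per transcript length, in the authors' RPKM (reads scaled by gene length and library size), Junb was the highest of the 10 genes in both lines. The gene, whose product is a JUN protein that often restrains JUN, had a level of 54.9 ± 4.45 RPKM in untreated RAW-Blue cells and 42.9 ± 12.0 RPKM in untreated K-Luc cells (SD, n = 2 each). In RAW-Blue cells the order continued with Jund at 36.8 ± 4.38, Atf3 at 35.95 ± 3.75, Jun at 24.2 ± 1.56, Fosl2 at 14.3 ± 0.283, Egr1 at 9.05 ± 0.495, Fos at 7.05 ± 0.212, Fosl1 at 5.30 ± 1.41 and Fosb and Batf at 0.300 RPKM. Jund and Atf3 did not differ beyond their spread there, nor did Fosb and Batf. In K-Luc cells Fosl1 at 32.7 ± 5.37 and Egr1 at 31.1 ± 5.66 RPKM came next, within their spread of each other and of Junb. Jund at 26.2 ± 0.566 and Fosl2 at 25.05 ± 0.212 RPKM followed, then Jun at 18.5 ± 0.566, while Atf3 at 1.25 ± 0.354, Fos at 0.700 and Fosb at 0.450 ± 0.212 RPKM were low and Batf was listed at 0.

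**Figure D1:**
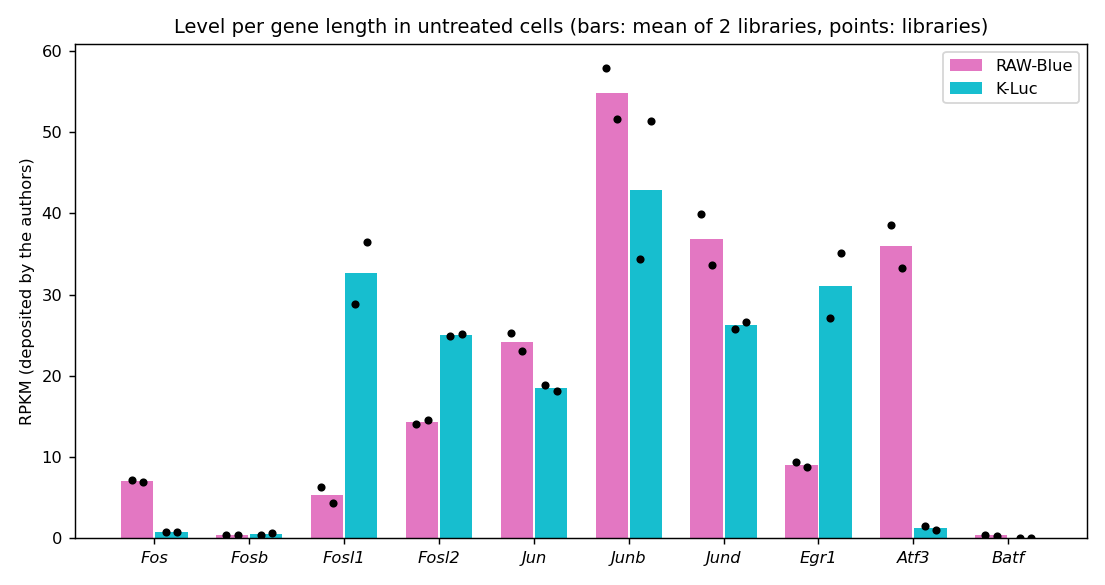
Level of each gene in untreated cells, in RPKM on a linear axis; bars are means of 2 libraries, points are the libraries, and RAW-Blue stands left of K-Luc. Atf3 is at 35.95 RPKM in RAW-Blue cells and 1.25 RPKM in K-Luc cells, and Fosl1 is at 5.30 RPKM in RAW-Blue cells and 32.7 RPKM in K-Luc cells.

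In a fit over both lines all 10 genes passed the test between untreated RAW-Blue and untreated K-Luc cells (edgeR quasi-likelihood, Benjamini-Hochberg adjusted p under 0.05, the threshold used throughout), 6 higher and 4 lower in RAW-Blue, where 37.0% of all tested genes were higher and 40.9% lower. The line, the treatment time and the plating differ together, so their parts cannot be told apart. Atf3, a stress-induced ATF protein that restrains Toll-like receptor cytokine genes in macrophages, was higher in RAW-Blue cells by 5.02 ± 0.27 on the log2 scale (± SE throughout for log2 differences; adjusted p = 4.97e-12). Fos, the prototype partner of JUN, was higher by 3.48 ± 0.20 (adjusted p = 1.29e-13). Jund and Jun were higher by 0.55 ± 0.10 and 0.48 ± 0.13 log2 (adjusted p = 1.99e-05 and 0.00212). Fosl1, which encodes Fra-1, was lower in RAW-Blue cells, with a log2 difference of -2.67 ± 0.15 (adjusted p = 2.44e-13), and so were Egr1, a zinc-finger immediate early factor, at -1.61 ± 0.16 (adjusted p = 2.24e-08) and Fosl2, which encodes Fra-2, at -0.75 ± 0.08 (adjusted p = 9.36e-09). Batf, a factor that pairs with JUN and with IRF4 or IRF8 in immune cells, had 17 counts over both untreated RAW-Blue libraries and 0 over both K-Luc libraries, which is at least 5.65-fold higher when K-Luc is set at a floor of 3 counts over the group. Calls of Junb (0.30 ± 0.12, adjusted p = 0.0302) and Fosb (-0.72 ± 0.31, adjusted p = 0.0425) each ended in 6 of 11 alternatives, and without K-Luc untreated replicate 2 those of Jun (adjusted p = 0.183), Junb (0.0627), Fosb (0.655) and Batf (1) ended.

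RAW-Blue cells, all treatments. Every treatment of the macrophages was accompanied by higher Fosl1, and the free mixture CpG+SWNT/LP moved most of the other genes as well. Against untreated cells, CpG raised 2 of the 10 genes (5.18% of all 11514 tested genes rose), SWNT/LP 1 (0.434%), CpG+SWNT/LP 8 (10.1%) and SWNT/CpG 5 (12.8%). None of the 10 fell, where 5.60%, 0.0434%, 10.1% and 10.4% of all tested genes fell. In fits of only the 2 compared groups, the calls of Fosl2 with CpG and of Fosl1 with SWNT/LP ended. So did those of Atf3, Fos, Jun and Junb with CpG+SWNT/LP and of Fosl2, Jun and Jund with SWNT/CpG. The members' median log2 difference was 0.38 for CpG, 0.26 for SWNT/LP, 0.69 for CpG+SWNT/LP and 0.36 for SWNT/CpG, beside medians of 0.01, 0.01, 0.00 and 0.00 over all tested genes. In bulk RNA, a change in the number of cells of one kind and a change in RNA per cell cannot be told apart. Summed macrophage markers stood at 7414 to 7506 CPM with CpG, 7088 to 7142 with SWNT/LP, 7619 to 7730 with CpG+SWNT/LP, 7565 to 7728 with SWNT/CpG and 7451 to 8314 CPM in untreated cells. The sum hides changes in both directions. Of 12 markers tested, 1 rose and 2 fell with CpG, 3 rose and 4 fell with CpG+SWNT/LP, and 2 rose and 4 fell with SWNT/CpG. None was called with SWNT/LP. The part of the markers in the results was not tested.

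**Figure D2:**
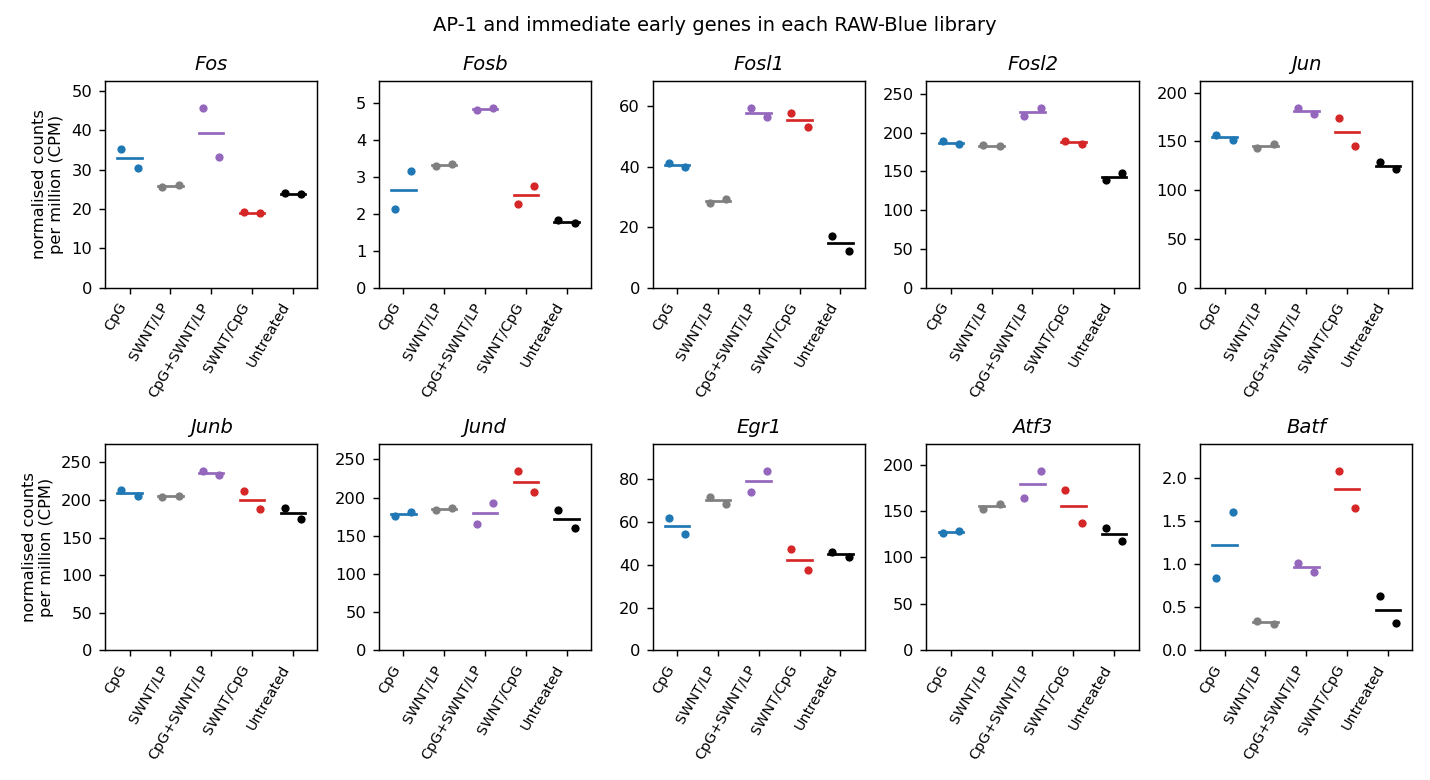
CPM of each of the 10 genes in every RAW-Blue library, 1 panel a gene, with CpG, SWNT/LP, CpG+SWNT/LP, SWNT/CpG and Untreated from left to right; points are libraries and lines are group means, and each panel has its own linear axis. Fosl1 lies at 28.0 CPM or higher in all treated libraries and at 12.1 and 17.1 CPM in the untreated ones, and Fos has its lowest 2 values with SWNT/CpG.

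Fosl1 (Fra-1) was the member with the most uniform rise. Its libraries read 41.2 and 40.0 CPM with CpG, 28.0 and 29.3 CPM with SWNT/LP, 59.5 and 56.5 CPM with CpG+SWNT/LP and 57.7 and 53.1 CPM with SWNT/CpG, against 17.1 and 12.1 CPM in untreated cells. No treated library overlapped the untreated ones, SWNT/LP was lowest of the treatments, and both CpG-with-nanotube groups were highest. Per length, the level was 14.4 ± 0.283 RPKM with CpG, 10.45 ± 0.0707 with SWNT/LP, 20.25 ± 1.34 with CpG+SWNT/LP and 19.75 ± 1.77 with SWNT/CpG, against 5.30 ± 1.41 RPKM untreated (SD, n = 2 each). The log2 rise was 1.48 ± 0.14 for CpG (2.78-fold, adjusted p = 0.000233), 0.97 ± 0.14 for SWNT/LP (1.96-fold, adjusted p = 0.0175), 1.99 ± 0.13 for CpG+SWNT/LP (3.98-fold, adjusted p = 1.71e-05) and 1.93 ± 0.14 for SWNT/CpG (3.80-fold, adjusted p = 1.80e-05). Since the untreated libraries stood apart from each other, each was left out in turn: the rises became 1.74, 1.24, 2.26 and 2.19 log2 in the same order of treatments without untreated replicate 1, and 1.24, 0.74, 1.76 and 1.69 without replicate 2, all still past the threshold. The SWNT/LP call ended without SWNT/LP replicate 1 or 2 and in an edgeR fit of only the 2 compared groups (adjusted p = 0.46).

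Fosl2 (Fra-2) moved the same way by less. It read 189 and 185 CPM with CpG, 184 and 183 with SWNT/LP, 221 and 232 with CpG+SWNT/LP and 189 and 186 with SWNT/CpG, against 139 and 148 CPM in untreated cells. The treated libraries all lay above the untreated ones. It rose by 0.38 ± 0.07 log2 with CpG (adjusted p = 0.00683), 0.66 ± 0.07 with CpG+SWNT/LP (adjusted p = 0.000194) and 0.39 ± 0.07 with SWNT/CpG (adjusted p = 0.00288); with SWNT/LP the difference of 0.35 ± 0.07 did not pass (adjusted p = 0.0645). The CpG call ended without CpG replicate 1 (adjusted p = 0.0632) or 2 (adjusted p = 0.057).

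Fos and Fosb, the FOS proteins with strong activation domains, rose with CpG+SWNT/LP. Fos read 35.2 and 30.5 CPM with CpG, 25.7 and 26.1 with SWNT/LP, 45.7 and 33.1 with CpG+SWNT/LP and 19.2 and 18.9 with SWNT/CpG, against 24.1 and 23.7 CPM in untreated cells. The SWNT/CpG libraries lay below the untreated ones, unlike those of the other treatments. The log2 differences were 0.46 ± 0.14 for CpG (adjusted p = 0.0665), 0.12 ± 0.14 for SWNT/LP, 0.72 ± 0.14 for CpG+SWNT/LP (adjusted p = 0.00664) and -0.33 ± 0.15 for SWNT/CpG (adjusted p = 0.135). Fosb was scarce, at 2.12 and 3.16 CPM with CpG, 3.30 and 3.34 with SWNT/LP, 4.80 and 4.86 with CpG+SWNT/LP and 2.25 and 2.75 with SWNT/CpG, against 1.83 and 1.74 CPM untreated. All its treated libraries were above the untreated ones, and it rose by 1.44 ± 0.22 log2 with CpG+SWNT/LP (adjusted p = 0.00166). Its differences of 0.57 ± 0.23 for CpG, 0.90 ± 0.22 for SWNT/LP and 0.50 ± 0.24 for SWNT/CpG did not pass (adjusted p = 0.153, 0.154 and 0.159).

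Of the JUN family, Jun and Junb rose with CpG+SWNT/LP, and Jun and Jund with SWNT/CpG. Jun, the strongest activator of the family, read 157 and 151 CPM with CpG, 143 and 147 with SWNT/LP, 184 and 178 with CpG+SWNT/LP and 174 and 145 with SWNT/CpG, against 129 and 122 CPM untreated. Every treated library exceeded the untreated ones. The rise was 0.53 ± 0.09 log2 with CpG+SWNT/LP (adjusted p = 0.0033) and 0.35 ± 0.09 with SWNT/CpG (adjusted p = 0.0201); that with CpG, 0.30 ± 0.09, did not pass (adjusted p = 0.0624). Junb read 239 and 234 CPM with CpG+SWNT/LP, against 189 and 175 CPM untreated, a rise of 0.38 ± 0.08 log2 (adjusted p = 0.00938). In the other treatments Junb spanned 188 to 214 CPM and was not called. Jund, often held at a steady level in resting cells, read 235 and 207 CPM with SWNT/CpG, against 183 and 160.0 CPM untreated (0.36 ± 0.10 log2, adjusted p = 0.0266), and 166 to 193 CPM in the other treatments, where it was not called. The SWNT/CpG calls ended without SWNT/CpG replicate 1 for Jun (adjusted p = 0.198) and Jund (0.227), and the Junb call without CpG+SWNT/LP replicate 1 (0.0749) or 2 (0.0584).

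Egr1, which is switched on through serum response factor and MAP kinases, rose with CpG+SWNT/LP. It read 62.1 and 54.6 CPM with CpG, 71.7 and 68.6 with SWNT/LP, 74.2 and 84.1 with CpG+SWNT/LP and 47.2 and 37.6 with SWNT/CpG, against 46.2 and 43.9 CPM untreated. Only the SWNT/CpG libraries overlapped the untreated ones. The rise with CpG+SWNT/LP was 0.81 ± 0.12 log2 (1.76-fold, adjusted p = 0.00128); the differences of 0.64 ± 0.12 with SWNT/LP and 0.37 ± 0.12 with CpG missed the threshold (adjusted p = 0.0539 and 0.0729), and that with SWNT/CpG was -0.09 ± 0.12 (95% interval -0.35 to 0.17). Atf3 read 127 and 128 CPM with CpG, 153 and 158 with SWNT/LP, 164 and 193 with CpG+SWNT/LP and 173 and 137 with SWNT/CpG, against 132 and 118 CPM untreated. It rose with CpG+SWNT/LP by 0.52 ± 0.12 log2 (adjusted p = 0.0143), a call that ended without CpG+SWNT/LP replicate 2 (adjusted p = 0.126).

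Batf showed its highest counts with SWNT/CpG, where the libraries held 36 and 33 reads, against 11 and 6 in untreated cells. CpG gave 15 and 29 reads, CpG+SWNT/LP 18 in each library, and SWNT/LP 7 and 6. Counts this low carry wide counting error, and SWNT/LP did not separate from untreated cells. The rise with SWNT/CpG was 1.98 ± 0.40 log2 (adjusted p = 0.00649), and it ended without SWNT/CpG replicate 1 (adjusted p = 0.0531). CpG (1.38 ± 0.44, adjusted p = 0.0745) and CpG+SWNT/LP (1.03 ± 0.45, adjusted p = 0.14) did not pass. A list around BATF held the partner genes Irf4 and Irf8 and the BATF-family genes Batf2 and Batf3. Of these 4, 2 were tested, and Irf8 rose with SWNT/CpG, at a mean of 121 CPM against 86.1 CPM untreated (0.49 ± 0.10 log2, adjusted p = 0.00678).

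The start regions of a FOS, a JUN and an ATF member that rose with CpG+SWNT/LP are shown. Each spans 250 bases before to 50 after the annotated start (RefSeq, GRCm38.p6). Windows of 8 of the 10 genes were examined, Fosl1 had none, and Egr1 was left out. Those shown lie at chr12:85473640-85473939 (Fos, plus strand), chr4:95052173-95052472 (Jun, minus strand) and chr1:191183284-191183583 (Atf3, minus strand), each read 5′ to 3′ on the gene's strand. Capitals mark matches, on either strand, to the AP-1 site TGACTCA, the cAMP response element TGACGTCA, its shorter form TGACG (which the longer one contains) and the AP-1-like octamer TGACNTCA.
Fos: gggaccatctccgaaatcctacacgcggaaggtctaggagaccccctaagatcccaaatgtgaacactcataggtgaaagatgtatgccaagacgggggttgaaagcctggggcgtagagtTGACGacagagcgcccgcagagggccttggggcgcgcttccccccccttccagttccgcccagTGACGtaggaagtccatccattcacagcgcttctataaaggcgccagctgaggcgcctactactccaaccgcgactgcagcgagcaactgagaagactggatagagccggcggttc
Jun: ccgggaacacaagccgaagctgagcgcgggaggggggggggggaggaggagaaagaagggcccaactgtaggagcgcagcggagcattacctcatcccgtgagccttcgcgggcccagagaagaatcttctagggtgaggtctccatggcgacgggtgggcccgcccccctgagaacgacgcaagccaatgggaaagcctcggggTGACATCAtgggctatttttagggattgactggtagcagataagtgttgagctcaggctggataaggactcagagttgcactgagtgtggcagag
Atf3: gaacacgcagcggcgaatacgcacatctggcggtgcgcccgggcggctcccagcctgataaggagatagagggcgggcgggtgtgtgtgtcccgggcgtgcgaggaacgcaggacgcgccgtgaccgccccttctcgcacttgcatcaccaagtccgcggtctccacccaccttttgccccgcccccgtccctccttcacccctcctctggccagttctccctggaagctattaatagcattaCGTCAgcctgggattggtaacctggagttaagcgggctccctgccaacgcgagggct
The Fos window holds TGACG at 2 places, the Jun window the octamer TGACATCA, and the Atf3 window TGACG on the opposite strand, written CGTCA. Of 32851 RefSeq windows of this length, 5.20% held TGACTCA, 1.79% TGACGTCA, 20.8% TGACG and 8.83% TGACNTCA. All 3 windows shown hold a match. Those of Fosb and Junb, which also rose with CpG+SWNT/LP, and of Batf, which was not called there, hold TGACG too. The windows of Fosl2, which rose there, and of Jund, which was not called, held none of the 4 motifs. The share of all windows that hold any of the 4 was not computed. A match describes the letters of these windows and no binding was measured.

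Genes around AP-1 in RAW-Blue cells were read from lists of dimer partners, immediate early genes, MAP kinase feedback genes, upstream kinases and textbook target genes. Of the target genes, 10 of 18 tested rose with CpG, 4 with SWNT/LP, 14 with CpG+SWNT/LP and 15 with SWNT/CpG, with none lower, and their median log2 difference was 1.18, 0.81, 1.45 and 1.82 in those groups. These and the following counts stand beside 5.18%, 0.434%, 10.1% and 12.8% of all tested genes that were higher. Ccl2, a monocyte chemokine, averaged 219 CPM with SWNT/CpG against 14.9 CPM untreated (3.88 ± 0.14 log2, adjusted p = 6.53e-07). Tnf averaged 474.5 CPM with CpG, 247 with SWNT/LP, 589 with CpG+SWNT/LP and 593 with SWNT/CpG, against 127.5 CPM untreated. Spp1, which encodes osteopontin, averaged 11300 CPM with SWNT/CpG against 2654 CPM untreated (2.09 ± 0.12 log2, adjusted p = 5.91e-06). Feedback genes rose in 7, 2, 11 and 11 of 15 tested, with none lower: Dusp5, an ERK phosphatase, averaged 12.6, 10.7, 22.2 and 20.4 CPM in those groups against 5.91 CPM untreated, and Dusp1, a phosphatase of JNK and p38, 20.6, 23.3, 38.0 and 23.6 CPM against 11.9 CPM. All 8 of these Dusp5 and Dusp1 rises passed the threshold.

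Among dimer partners 5 of 16 rose and 1 fell with CpG, none changed with SWNT/LP (median 0.15 log2), 9 rose and 1 fell with CpG+SWNT/LP, and 11 rose and 1 fell with SWNT/CpG. Jdp2, a repressor that pairs with JUN, averaged 71.4 CPM with CpG, 79.25 with CpG+SWNT/LP and 68.3 with SWNT/CpG, against 33.1 CPM untreated. Atf5 averaged 51.3, 66.2 and 85.2 CPM in those groups, against 27.0 CPM untreated, and rose in each. Other immediate early genes rose in 9, 5, 15 and 13 of 32 tested and fell in 2, 0, 3 and 4 for CpG, SWNT/LP, the free mixture and SWNT/CpG. Myc, a growth regulator, averaged 15.3, 4.29, 15.4 and 13.3 CPM in these groups against 1.53 CPM untreated, and each rise passed, the smallest being 1.48 ± 0.18 log2 with SWNT/LP (adjusted p = 0.0138). Of 24 tested upstream kinases and factors, 1, 0, 1 and 4 were higher and 0, 0, 2 and 1 lower, where 5.60%, 0.0434%, 10.1% and 10.4% of all tested genes were lower; Map3k8, a kinase that couples Toll-like receptors to ERK, averaged 16.8 CPM with CpG against 8.56 CPM untreated (0.97 ± 0.17 log2, adjusted p = 0.00613).

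K-Luc cells, all treatments. In the glioma line Fosl1 moved the opposite way: it fell with each treatment that contained CpG-28 and was not called with SWNT/LP. Against untreated cells 9 of the 10 genes were tested, since Batf had 1 read in a single SWNT/LP library and none in the other 13. CpG raised 0 and lowered 1 of the 9 (17.9% of all 12420 tested genes were higher and 18.4% lower), and CpG+SWNT/LP likewise raised 0 and lowered 1 (16.1% and 17.8% of all tested genes). SWNT/CpG raised 3 and lowered 1 (21.8% and 21.3%). SWNT/LP called 0 of the 9 in edgeR and in DESeq2 (in edgeR 0.0886% of all tested genes were higher and 0.0403% lower), with 1 member at an unadjusted p under 0.05. The 4 calls of 9 with SWNT/CpG lie near the share of all genes called in either direction. The members' median log2 differences of 0.01, 0.05, 0.08 and 0.20 for CpG, SWNT/LP, the free mixture and SWNT/CpG stood beside medians of 0.01, 0.00, 0.01 and 0.01 over all genes.

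**Figure D3:**
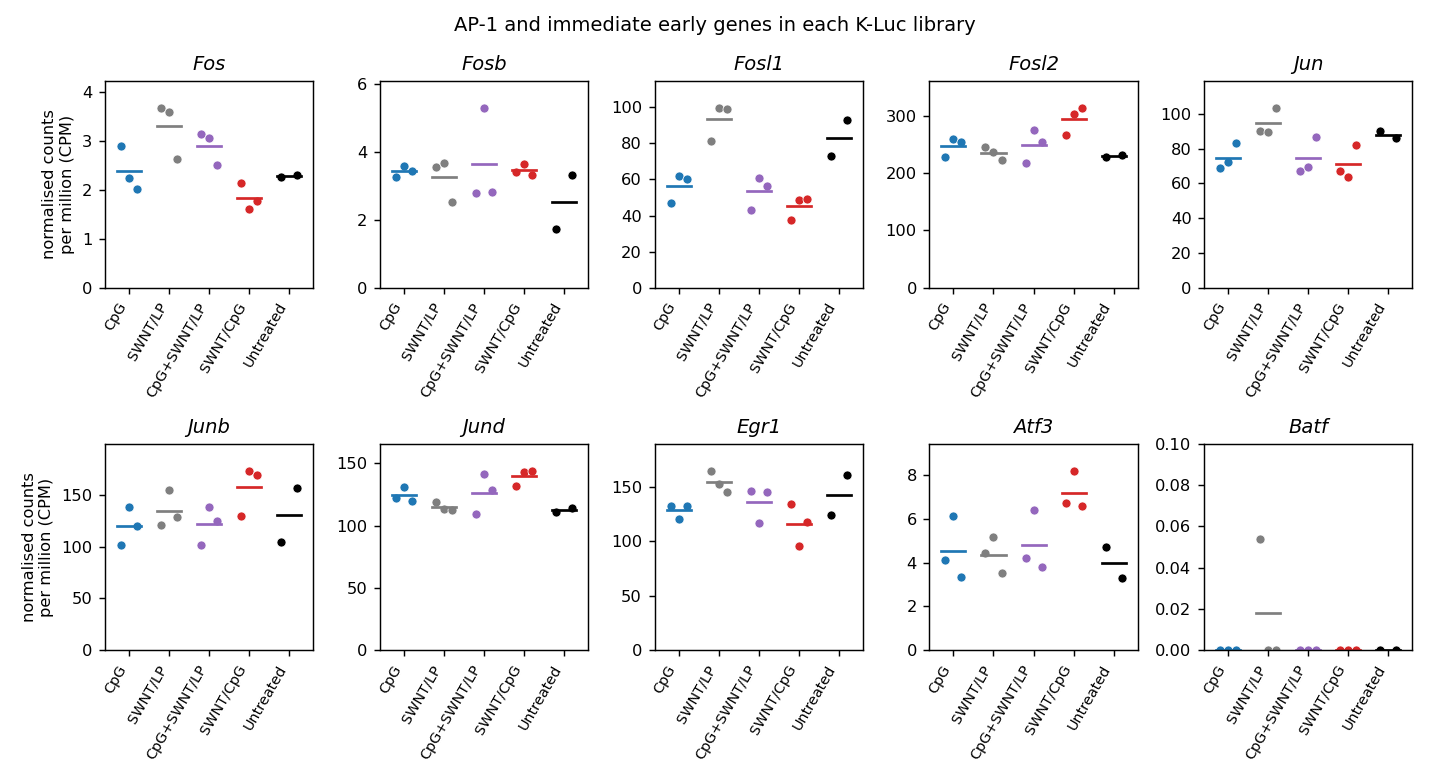
CPM of each of the 10 genes in every K-Luc library, 1 panel a gene, with CpG, SWNT/LP, CpG+SWNT/LP, SWNT/CpG and Untreated from left to right; points are libraries and lines are group means, and each panel has its own linear axis. Fosl1 lies at 61.8 CPM or lower in the 9 libraries with CpG-28 and at 73.3 CPM or higher in the other 5.

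Fosl1 read 46.7, 61.8 and 60.1 CPM with CpG, 81.6, 99.7 and 99.2 with SWNT/LP, 43.2, 60.8 and 56.2 with CpG+SWNT/LP and 37.5, 48.8 and 49.0 with SWNT/CpG, against 73.3 and 92.8 CPM in untreated cells. The 3 groups with CpG-28 lay wholly below the untreated libraries, and SWNT/LP overlapped them. Per length its level was 22.3 ± 2.93 RPKM with CpG, 37.0 ± 3.67 with SWNT/LP, 21.0 ± 3.40 with CpG+SWNT/LP and 17.7 ± 2.31 with SWNT/CpG (SD, n = 3 each), against 32.7 ± 5.37 RPKM untreated (SD, n = 2). Log2 differences were -0.75 ± 0.11 for CpG (adjusted p = 0.000214), -0.70 ± 0.11 for CpG+SWNT/LP (adjusted p = 0.000271) and -0.95 ± 0.11 for SWNT/CpG (adjusted p = 9.84e-06), that is 0.595, 0.614 and 0.519 times the untreated level. For SWNT/LP the difference was -0.01 ± 0.11 with a 95% interval of -0.25 to 0.23. Within run 2 the falls were -0.73, -0.67 and -0.92 log2, and without every replicate 1 they were -0.61, -0.67 and -0.92. Both fits hold 1 untreated K-Luc library. Replicate 1 gave the lowest Fosl1 value in 5 of 5 K-Luc groups.

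Fosl2, Jund and Atf3 rose with SWNT/CpG. Fosl2 read 267, 303 and 314 CPM with SWNT/CpG, against 229 and 232 CPM untreated (0.32 ± 0.07 log2, adjusted p = 0.00118). CpG spanned 228 to 259.6 CPM, SWNT/LP 223 to 246 CPM and CpG+SWNT/LP 219 to 275 CPM, and none of those groups was called. Jund read 132, 143 and 144 CPM with SWNT/CpG, against 111 and 114 CPM untreated (0.29 ± 0.06 log2, adjusted p = 0.00168). Atf3 read 6.72, 8.18 and 6.58 CPM with SWNT/CpG, against 4.72 and 3.27 CPM untreated (0.89 ± 0.29 log2, adjusted p = 0.024). In all of these the SWNT/CpG libraries did not overlap the untreated ones. Within run 2, which holds 1 untreated K-Luc library, the rises were 0.41 for Fosl2, 0.33 for Jund and 1.17 log2 for Atf3. All of them ended without untreated replicate 2, at adjusted p = 0.114 for Fosl2, 0.126 for Jund and 0.469 for Atf3, and the Atf3 call also without SWNT/CpG replicate 2 (0.0733), without all K-Luc libraries numbered 1 (0.11) and with no filter on low counts (0.0608).

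Among the members that were not called in K-Luc cells against untreated ones, Jun read 68.6, 72.2 and 83.2 CPM with CpG, 90.4, 89.9 and 103 with SWNT/LP, 67.2, 69.5 and 86.9 with CpG+SWNT/LP and 67.3, 63.6 and 81.9 with SWNT/CpG, against 89.9 and 86.3 CPM untreated. Its log2 differences of -0.29 ± 0.13 for CpG, -0.26 ± 0.12 for CpG+SWNT/LP and -0.33 ± 0.13 for SWNT/CpG missed the threshold (adjusted p = 0.111, 0.133 and 0.0525). An alternative fit with the replicate number as a block called Jun lower in each of these groups. Fos spanned 1.61 to 3.67 CPM and Egr1 96.0 to 165 CPM over all 14 libraries. The Fos libraries with SWNT/LP and with CpG+SWNT/LP all lay above the untreated ones, and those with SWNT/CpG all below. These Fos differences were 0.59 ± 0.22, 0.36 ± 0.21 and -0.31 ± 0.23 log2 and did not pass (adjusted p = 0.964, 0.205 and 0.297). The unadjusted p for SWNT/LP was 0.0163. Fosb read 3.25, 3.59 and 3.45 CPM with CpG, 3.56, 3.67 and 2.54 with SWNT/LP, 2.80, 5.30 and 2.81 with CpG+SWNT/LP and 3.40, 3.64 and 3.34 with SWNT/CpG, against 1.72 and 3.32 CPM untreated (adjusted p = 0.227 to 0.981). The lower untreated library lay below every treated one. Junb read 101, 138 and 119 CPM with CpG and 129.5, 173 and 169 with SWNT/CpG, against 105 and 157 CPM untreated. Its log2 differences of -0.33 ± 0.13 for CpG and 0.20 ± 0.12 for SWNT/CpG did not pass (adjusted p = 0.0674 and 0.212), though DESeq2 called the one for CpG (adjusted p = 0.0195).

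Genes listed as fibroblast, vessel and glia markers also moved in K-Luc cells. Of the fibroblast and vessel list, Col1a1 spanned 3600 to 8100 CPM over K-Luc libraries, Col3a1 634 to 1534 and Pdgfrb 287 to 583 CPM. Pdgfra reached 120 CPM, while Dcn, Lum, Pecam1, Cdh5 and Kdr did not pass 0.604 CPM. The sum of this list therefore follows collagen and PDGF receptor transcripts, not vessel markers. Summed fibroblast and vessel markers were 7853 to 9060 CPM with CpG, 4629 to 6251 with SWNT/LP, 7702 to 8352 with CpG+SWNT/LP and 9143 to 9959 CPM with SWNT/CpG, against 4878 to 6301 CPM untreated, and 3 of 5 tested members rose in each CpG-28 group. Summed glia markers were 808 to 943, 1020 to 1120, 863 to 948 and 829 to 905 CPM in the same groups, against 1053 to 1063 CPM untreated. Of 7 glia markers tested, 2 rose and 2 fell with CpG, 1 rose and 2 fell with CpG+SWNT/LP, and 3 fell with SWNT/CpG. Of all tested genes, 17.9%, 16.1% and 21.8% were higher and 18.4%, 17.8% and 21.3% lower there. Cd44, also among the textbook target genes, gave 442 to 674 CPM of the sum, and 474 to 667 CPM in RAW-Blue libraries. The part of the markers in the AP-1 results was not tested.

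The lists around AP-1 moved in both directions in K-Luc cells. Textbook target genes fell in 8 of 17 tested with CpG and in 8 with CpG+SWNT/LP, with none higher, and rose in 5 and fell in 6 with SWNT/CpG; their medians were -0.35, -0.21 and 0.13 log2. Of all tested genes, 17.9%, 16.1% and 21.8% were higher and 18.4%, 17.8% and 21.3% lower with CpG, CpG+SWNT/LP and SWNT/CpG. Timp1, an inhibitor of matrix metalloproteinases, averaged 131 CPM with CpG, against 200.1 CPM untreated (-0.80 ± 0.09 log2, adjusted p = 2.20e-05). Ccnd1, which encodes cyclin D1, averaged 283 CPM with SWNT/CpG, against 470.4 CPM untreated (-0.73 ± 0.06 log2, adjusted p = 4.28e-08). Areg, an EGF-receptor ligand, averaged 0.921 CPM with SWNT/CpG against 3.33 CPM untreated and fell by 1.95 on the log2 scale (adjusted p = 0.000225). Dimer partners rose in 7 of 16 and fell in 1 with SWNT/CpG, other immediate early genes rose in 13 of 36 and fell in 4, feedback genes rose in 2 of 17 and fell in 6, and upstream kinases rose in 3 of 26 and fell in 3, beside the 21.8% higher and 21.3% lower of all tested genes. Of these, Ctgf, a matricellular immediate early gene, averaged 119 CPM with SWNT/CpG, against 56.5 CPM untreated (1.09 ± 0.12 log2, adjusted p = 5.56e-06), and Dusp2, an ERK phosphatase, 10.1 CPM against 18.3 CPM (-0.96 ± 0.14 log2).

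CpG-28 on the nanotube and free beside it. SWNT/CpG was set against CpG+SWNT/LP to ask whether carrying the oligonucleotide on the tube differs from giving both apart; lipid-PEG is present in the second only. In RAW-Blue cells Fos and Egr1 were lower with SWNT/CpG. Here 0 of the 10 genes were higher and 2 lower, where 0.469% of all tested genes were higher and 0.356% lower. Fos, at 19.2 and 18.9 CPM with SWNT/CpG against 45.7 and 33.1 CPM with CpG+SWNT/LP, had a log2 difference of -1.04 ± 0.14 (adjusted p = 0.0237). Egr1, at 47.2 and 37.6 CPM against 74.2 and 84.1 CPM, had -0.90 ± 0.12 (adjusted p = 0.0233). Neither gene's libraries overlapped, and Fosb, at -0.94 ± 0.20, did not pass (adjusted p = 0.0738). Fosl1 differed by -0.07 ± 0.12 (95% interval -0.34 to 0.21). The Egr1 call ended without CpG+SWNT/LP replicate 1 (adjusted p = 0.113) or 2 (0.0845) and without SWNT/CpG replicate 1 (0.0746) or 2 (0.084), and the Fos call without CpG+SWNT/LP replicate 1 (0.113) and SWNT/CpG replicate 1 (0.285) or 2 (0.125). Of the related lists Dusp1 was lower with SWNT/CpG, at 23.6 CPM against 38.0 CPM (-0.69 ± 0.11 log2, adjusted p = 0.0315), and Irf8 higher, at 121 CPM against 81.6 CPM (0.57 ± 0.10 log2, adjusted p = 0.0441).

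In K-Luc cells the same comparison called 2 members higher and 1 lower of 9, where 8.54% of all tested genes were higher and 9.12% lower. Fosl2 read 267, 303 and 314 CPM with SWNT/CpG, against 219, 275 and 254 CPM with CpG+SWNT/LP (0.24 ± 0.06 log2, adjusted p = 0.00801). Junb read 129.5, 173 and 169 CPM against 102, 139 and 125 CPM (0.37 ± 0.11, adjusted p = 0.0344). Fos read 2.14, 1.61 and 1.76 CPM against 3.14, 3.05 and 2.51 CPM, without overlap (-0.67 ± 0.19, adjusted p = 0.0225). Fosl1 was lower by a mean of 45.1 against 53.4 CPM, which did not pass (-0.24 ± 0.10, adjusted p = 0.115). Within run 2 none of the called members passed (adjusted p = 0.0565 for Fosl2, 0.103 for Junb and 0.0928 for Fos), and the Junb call ended whichever of the 6 libraries was left out, at adjusted p from 0.0609 to 0.115. Without CpG+SWNT/LP replicate 1 the Fos (0.0789) and Fosl2 (0.0842) calls ended, and the Fos call also without CpG+SWNT/LP replicate 2 (0.105) or SWNT/CpG replicate 2 (0.103) or 3 (0.0696).

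**Figure D4:**
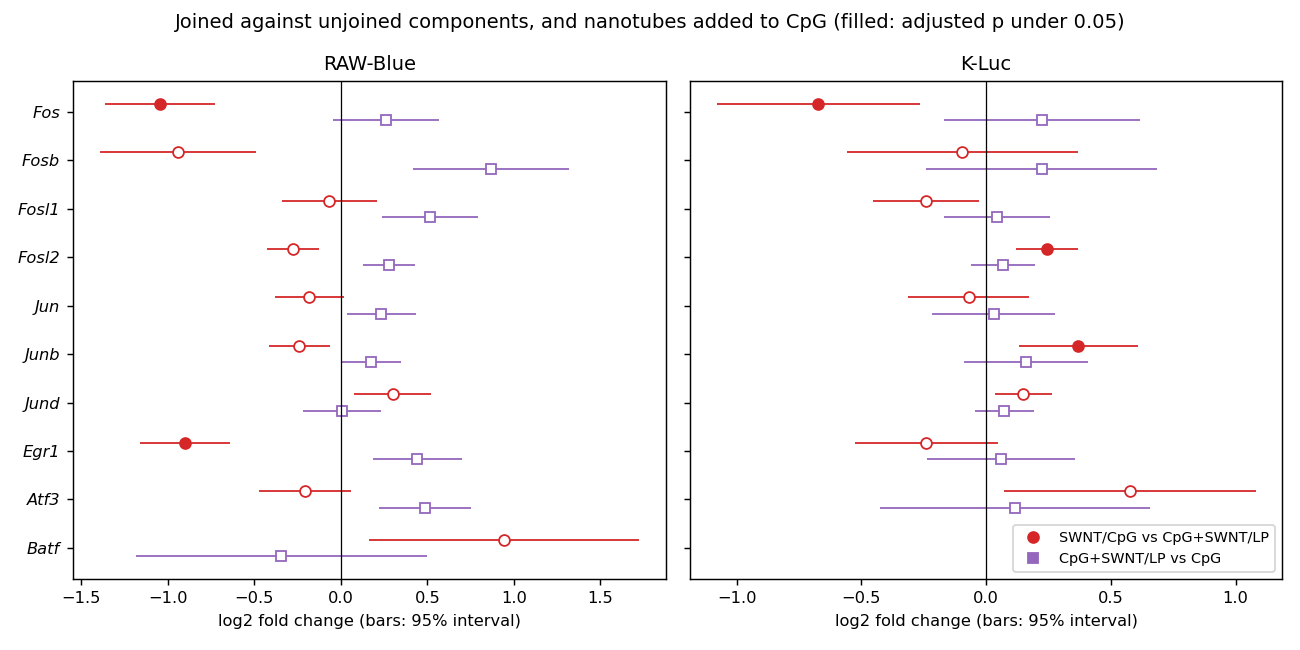
Log2 fold change with its 95% interval for SWNT/CpG against CpG+SWNT/LP (circles) and CpG+SWNT/LP against CpG (squares), RAW-Blue left and K-Luc right; filled symbols passed an adjusted p of 0.05. Fos and Egr1 are filled below 0 in RAW-Blue cells for SWNT/CpG against CpG+SWNT/LP, and no square is filled in either line.

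Against the single agents, SWNT/CpG and CpG in RAW-Blue cells differed in 1 member, lower with SWNT/CpG (0.669% of all tested genes were higher and 0.174% lower): Fos at 19.2 and 18.9 CPM, against 35.2 and 30.5 CPM with CpG (-0.79 ± 0.14 log2, adjusted p = 0.0418), a call that ended without any of the 4 libraries (adjusted p = 0.0903 to 0.416). Against SWNT/LP, SWNT/CpG raised 2 members and lowered 1 in RAW-Blue cells (6.30% and 4.00% of all tested genes). Fosl1 was higher by 0.95 ± 0.13 log2 (adjusted p = 0.00124) and Batf by 2.49 ± 0.43 (adjusted p = 0.00484), and Egr1 was lower, at -0.73 ± 0.12 (adjusted p = 0.00342). The Batf call ended without SWNT/LP replicate 1 (0.0545) or 2 (0.0586). In K-Luc cells SWNT/CpG against CpG raised 3 members and lowered 0 (7.29% and 7.58% of all tested genes), Junb by 0.53 ± 0.11 (adjusted p = 0.00702), Fosl2 by 0.31 ± 0.06 (adjusted p = 0.00227) and Jund by 0.22 ± 0.06 (adjusted p = 0.0129); without the run term 0 passed (adjusted p = 0.185, 0.0559 and 0.17). Jund also failed to pass without CpG replicate 3 (0.0596) or SWNT/CpG replicate 3 (0.0516).

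Against SWNT/LP, SWNT/CpG in K-Luc cells called 4 members higher and 4 lower (21.5% and 20.2% of all tested genes). Fosl2, Jund, Junb and Atf3 were higher by 0.38 ± 0.06, 0.34 ± 0.06, 0.36 ± 0.11 and 0.73 ± 0.25 log2 (adjusted p = 0.000106, 0.000181, 0.0234 and 0.0288). Fosl1, Fos, Egr1 and Jun were lower, at -0.94 ± 0.10, -0.91 ± 0.20, -0.44 ± 0.14 and -0.38 ± 0.11 (adjusted p = 4.41e-06, 0.00154, 0.0227 and 0.0176). Fos, Fosl1, Fosl2 and Jund were called under each of the 14 alternatives. The calls of Atf3, Egr1, Jun and Junb each ended under 4 to 7 of them, among them the omission of SWNT/CpG replicate 2 (adjusted p = 0.146, 0.105, 0.102 and 0.0651), and for some of these genes that of SWNT/LP replicate 1, 2 or 3 or SWNT/CpG replicate 3 (0.0517 to 0.108).

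Adding coated nanotubes to free CpG-28 gave 0 called members in either line. In RAW-Blue cells CpG+SWNT/LP against CpG called 0 of 10 in edgeR and 0 in DESeq2 (in edgeR 0.122% of all tested genes were higher and 0.00869% lower), with 6 at an unadjusted p under 0.05. All 6 were higher: Fosb by 0.87 ± 0.20, Fosl1 by 0.51 ± 0.12, Atf3 by 0.49 ± 0.12, Egr1 by 0.44 ± 0.12, Fosl2 by 0.28 ± 0.07 and Jun by 0.23 ± 0.09 log2 (adjusted p from 0.244 to 0.628). In K-Luc cells 0 of 9 were called in either tool (in edgeR 0.0564% of all tested genes were higher and 0.209% lower) and 0 had an unadjusted p under 0.05; Fosl1 differed by 0.04 ± 0.10 (95% interval -0.17 to 0.26). Adding free CpG-28 to coated nanotubes (CpG+SWNT/LP against SWNT/LP) raised 3 members and lowered 0 in RAW-Blue cells (2.45% and 2.37% of all tested genes), Fosl1 by 1.02 ± 0.13 (adjusted p = 0.00197), Fos by 0.60 ± 0.14 (adjusted p = 0.0376) and Fosl2 by 0.31 ± 0.07 (adjusted p = 0.0307). In K-Luc cells it raised Jund by 0.19 ± 0.06 (adjusted p = 0.0196) and lowered Fosl1, at -0.69 ± 0.10 (adjusted p = 0.000146), where 15.0% of all tested genes were higher and 15.8% lower. The Fosl1 calls held under every alternative run, while the K-Luc Jund call ended without the run term. The RAW-Blue Fos and Fosl2 calls ended without SWNT/LP replicate 1 (0.264 and 0.25), SWNT/LP replicate 2 (0.219 and 0.25) or CpG+SWNT/LP replicate 1 (0.236 and 0.122), Fosl2 also without CpG+SWNT/LP replicate 2 (0.212), and the K-Luc Jund call without CpG+SWNT/LP replicate 2 (0.198) or SWNT/LP replicate 2 (0.0589) or 3 (0.0759).

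Responses of the lines compared. The response of Fosl1 differed between the lines for every treatment. In a fit over all 24 libraries the log2 response of RAW-Blue cells minus that of K-Luc cells was 2.21 ± 0.19 for CpG (adjusted p = 1.19e-07), 0.97 ± 0.19 for SWNT/LP (adjusted p = 0.0377), 2.69 ± 0.18 for CpG+SWNT/LP (adjusted p = 2.27e-09) and 2.87 ± 0.18 for SWNT/CpG (adjusted p = 6.61e-10). With SWNT/CpG Fosl1 stood at 19.75 ± 1.77 RPKM in RAW-Blue cells (SD, n = 2) and 17.7 ± 2.31 RPKM in K-Luc cells (SD, n = 3). Of 9 tested members, 4 had a higher response in RAW-Blue than in K-Luc cells to CpG (11.3% of all tested genes did), 1 to SWNT/LP (0.127%), 5 to CpG+SWNT/LP (12.7%) and 2 to SWNT/CpG (14.4%). None had a lower one, where 10.6%, 0.0599%, 11.3% and 11.1% of all tested genes did. For CpG+SWNT/LP the other 4 were Egr1 (0.87 ± 0.20), Jun (0.78 ± 0.16), Fosl2 (0.57 ± 0.10) and Junb (0.53 ± 0.16). The SWNT/LP difference of Fosl1 ended under 8 of 16 alternatives, among them without K-Luc untreated replicate 1 (adjusted p = 0.122) or 2 (0.293), K-Luc SWNT/LP replicate 1 (0.0541) or RAW-Blue SWNT/LP replicate 1 (0.125) or 2 (0.19). For CpG+SWNT/LP the Egr1 difference ended without K-Luc untreated replicate 2 (0.1), and that of Junb without the same library (0.179), RAW-Blue untreated replicate 2 (0.0808) or RAW-Blue CpG+SWNT/LP replicate 1 (0.0535). Line, plating and treatment time (17 to 19 h against 47 to 50 h) differ together and cannot be told apart.

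**Figure D5:**
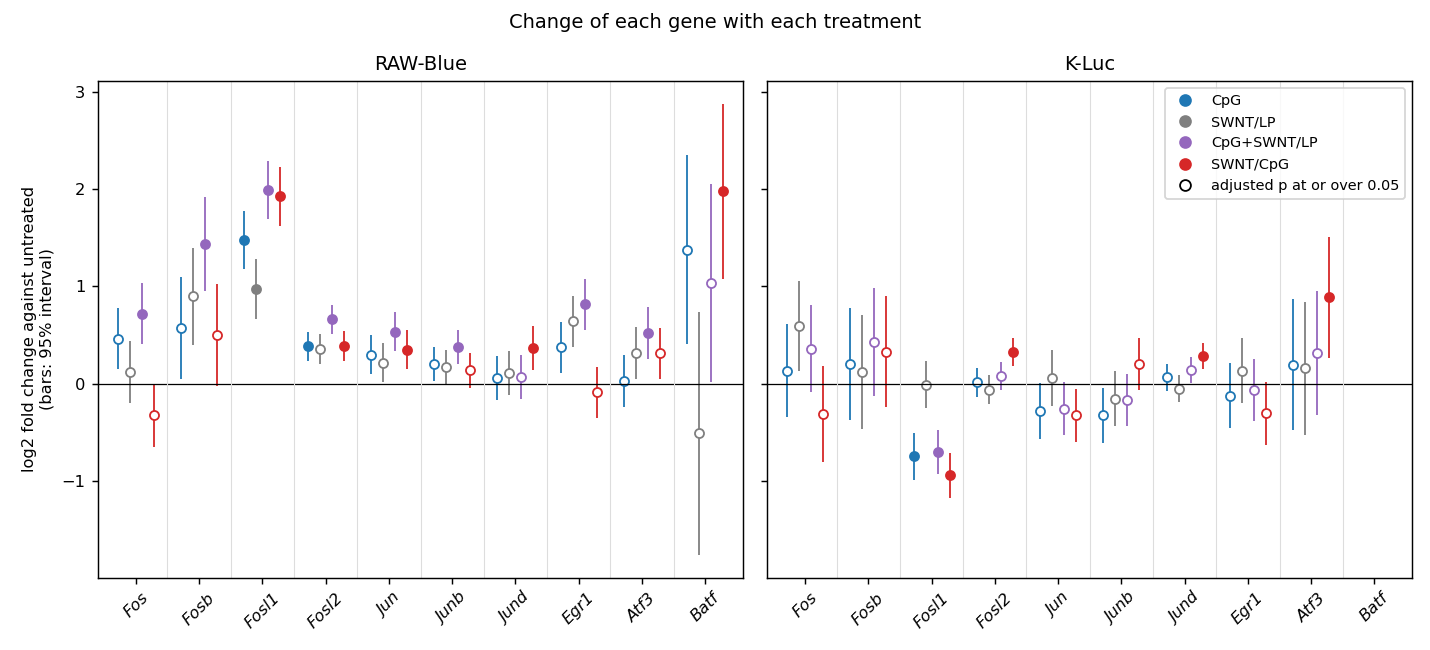
Log2 fold change against untreated cells with its 95% interval for each tested gene and treatment, RAW-Blue left and K-Luc right; filled symbols passed an adjusted p of 0.05. Fosl1 is filled above 0 for all 4 treatments in RAW-Blue cells and filled below 0 for the 3 treatments with CpG-28 in K-Luc cells.

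Genes most like Fosl1. Over the 10 RAW-Blue libraries and 10259 genes, the transcripts whose log2 CPM followed Fosl1 most closely were Irf2bpl (Pearson r = 0.990), Csf3 (0.986), Ccl4 (0.986), Ifrd1 (0.986) and Eaf1 (0.984). Csf3 encodes granulocyte colony-stimulating factor and Ccl4 a macrophage chemokine. Over the 14 K-Luc libraries and 10950 genes they were Dna2 (0.996), a nuclease-helicase of DNA replication and repair, Ruvbl2 (0.993), an ATPase of chromatin-remodelling complexes, Nup205 (0.989), Umps (0.987), the enzyme that makes UMP, and Pmpca (0.986). Among the members, Jun followed Fosl1 most closely in both lines (r = 0.90 in RAW-Blue and 0.81 in K-Luc). Among all these genes Jun ranked only 292 in RAW-Blue and 1559 in K-Luc cells. Fosl2 had r = 0.87 in RAW-Blue and -0.42 in K-Luc cells. These values describe libraries that share treatment groups and, in K-Luc cells, the offset of replicate 1.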

How the data were processed

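The authors deposited raw read counts per gene and RPKM values per gene (rounded to 1 decimal) for 24 libraries. TopHat2 2.0.14, HTSeq 0.6.0 and the build mm9 are named in the submitters' processing notes; neither the annotation nor the strand setting is named there. The kit was a stranded mRNA kit, per the labels' protocols, so reads of overlapping antisense genes may or may not have been separated. Deposited counts were tested with edgeR 4.0.16 (R 4.3.3): TMM scaling, filterByExpr by group (minimum count 10, total 15), robust quasi-likelihood fits and Benjamini-Hochberg adjustment over all tested genes at 0.05. K-Luc was fitted with group and run (14 libraries), RAW-Blue with group (10), and comparisons between lines with both terms over all 24; a line's groups share one estimate of the spread. CPM values are TMM-scaled within a line, those of marker genes over both lines. RPKM was used to compare levels between genes and was not tested. Alternatives were DESeq2 1.42.0, its size factors, no low-count filter, the replicate number as a block, only the groups compared, each library left out, run 2 alone and a fit without run. Leaving out every K-Luc replicate 1 was chosen after seeing the data. The steps were tested on simulated data.

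The 10 genes and the lists were chosen with earlier results of these data known. The rule names all 10 in each comparison, of which the text gives the called ones and some others with values and the rest by range or count; of each other list, up to 3 called genes with the smallest adjusted p may be named, and in addition the 5 genes most correlated with the member of smallest adjusted p for SWNT/CpG in each line. The Dusp1 values with CpG and with SWNT/CpG against untreated RAW-Blue cells, and the marker genes, were added after their values were seen.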

Additional observations from a re-analysis of the deposited data

Results flagged for a closer look

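A test of the difference between the lines, RAW-Blue log2 response minus K-Luc log2 response in the fit over all 24 libraries, passed for 12 of the responses of these genes. Line, plating and treatment time differ together, so none of these values can be given to the line itself. For CpG they were Fosl1 at 2.21 ± 0.19 (adjusted p = 1.19e-07), Jun at 0.57 ± 0.17 (adjusted p = 0.0191), Junb at 0.51 ± 0.16 (adjusted p = 0.0288) and Fosl2 at 0.36 ± 0.10 (adjusted p = 0.0171). For SWNT/LP it was Fosl1 at 0.97 ± 0.19 (adjusted p = 0.0377). For CpG+SWNT/LP they were Fosl1 at 2.69 ± 0.18 (adjusted p = 2.27e-09), Egr1 at 0.87 ± 0.20 (adjusted p = 0.00413), Jun at 0.78 ± 0.16 (adjusted p = 0.00145), Fosl2 at 0.57 ± 0.10 (adjusted p = 0.000252) and Junb at 0.53 ± 0.16 (adjusted p = 0.0182). For SWNT/CpG they were Fosl1 at 2.87 ± 0.18 (adjusted p = 6.61e-10) and Jun at 0.67 ± 0.16 (adjusted p = 0.00418).

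The Fosl1 differences for CpG, CpG+SWNT/LP and SWNT/CpG and the Jun and Fosl2 differences for CpG+SWNT/LP passed under all 16 alternatives. For CpG, the differences of Fosl2, Jun and Junb ended under 6, 5 and 6 of them. Without RAW-Blue CpG replicate 1 all 3 ended (adjusted p = 0.06, 0.0708 and 0.0936). Without K-Luc untreated replicate 1 Fosl2 (0.0989) and Jun (0.0766) ended, without RAW-Blue untreated replicate 2 Jun (0.0758) and Junb (0.106), and Junb also without K-Luc untreated replicate 2 (0.292), K-Luc CpG replicate 1 (0.059) or RAW-Blue CpG replicate 2 (0.0556). Groups here held 2 or 3 libraries, fewer than the 4 that a search for a single outlying library needs.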

How the results depend on the processing

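None of the called member differences changed direction under the alternatives run. Of 69 member calls, 67 were kept with DESeq2, 68 with its size factors, 62 with no low-count filter and 66 with the replicate block; of the 44 calls with K-Luc libraries, 32 were kept without the run term, 37 with run 2 alone and 32 without all K-Luc libraries numbered 1; of 47 within-line calls, 38 were kept with only the compared groups. The share of all tested genes called also varied, a case being 1 comparison under 1 alternative. It moved by over 1.5 times in 61 cases and not in 65 where single libraries were left out in turn. Under the other alternatives it moved in 41 cases and not in 111. Those shares are not given here, so a moved count of members cannot be set apart from a change over all genes. Counts of called members moved by over 1.5 times as follows, and the cause was not tested. DESeq2 gave 2 for CpG in K-Luc (1 in the main fit), 3 for SWNT/LP in RAW-Blue (1) and 2 for SWNT/CpG against CpG in RAW-Blue (1). No filter gave 4 for SWNT/CpG against SWNT/LP in K-Luc (8), 4 for CpG (2), 2 for SWNT/LP (1) and 2 for SWNT/CpG against CpG (1) in RAW-Blue. No run term gave 0 for SWNT/CpG against CpG (3) and 1 against CpG+SWNT/LP (3) in K-Luc, and 2 for CpG (4) and 0 for SWNT/LP (1) between the lines. Run 2 alone gave 0 for SWNT/CpG against CpG+SWNT/LP (3) and 0 for SWNT/LP between the lines (1).

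The replicate block gave 3 called members for CpG (1 without it), 6 for CpG+SWNT/LP (1), 5 for SWNT/CpG against CpG (3), 6 against CpG+SWNT/LP (3) and 4 for CpG+SWNT/LP against SWNT/LP (2), all in K-Luc. With it, differences against untreated K-Luc cells for CpG, CpG+SWNT/LP and SWNT/CpG were called for Jun (adjusted p = 2.26e-06, 2.96e-07 and 6.01e-09) and Junb (0.00202, 0.0204 and 1.55e-05). Jun was lower in all 3 groups. Junb was lower with CpG and CpG+SWNT/LP and higher with SWNT/CpG. Same-numbered libraries did not meet the criterion for pairing: deviations from group means correlated at -0.07 to 0.503 in K-Luc (median 0.164) and -0.093 to 0.159 in RAW-Blue (median 0.026). In K-Luc, 14 of 14 libraries correlated on average more with their own number than with others, which comes from the data and not the design. Deviations within a group offset each other and replicate 1 stood apart in the treated groups. The 14 are therefore not independent, and their count cannot show pairing. Pairs of K-Luc libraries numbered 3 correlated at -0.07 to 0.313. In RAW-Blue 10 of 10 libraries were closer to their own number, but deviations in a group of 2 libraries mirror each other. Both libraries of such a group therefore give the same mean, which was 0.005 to 0.053.

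Fits of only the compared groups gave, in K-Luc, 2 for CpG (1), 2 for CpG+SWNT/LP (1) and 6 for SWNT/CpG against CpG+SWNT/LP (3), and in RAW-Blue 1 for CpG (2), 0 for SWNT/LP (1), 4 for CpG+SWNT/LP (8), 2 for SWNT/CpG (5), 4 for SWNT/CpG against CpG (1), 5 against SWNT/LP (3), 5 against CpG+SWNT/LP (2), 4 for CpG+SWNT/LP against CpG (0) and 7 against SWNT/LP (3). Without all K-Luc libraries numbered 1 the counts were 2 for CpG (1), 3 for CpG+SWNT/LP (1), 4 for SWNT/CpG against SWNT/LP (8), and between the lines 0 for SWNT/LP (1) and 1 for SWNT/CpG (2).

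Leaving out each library in turn gave, in K-Luc, 1 to 2 for CpG, 1 to 2 for CpG+SWNT/LP, 1 to 5 for SWNT/CpG, 4 to 8 for SWNT/CpG against SWNT/LP, 0 to 3 against CpG+SWNT/LP and 1 to 3 for CpG+SWNT/LP against SWNT/LP. In RAW-Blue it gave 1 to 5 for CpG, 0 to 4 for SWNT/LP, 2 to 6 for SWNT/CpG, 0 to 0 for SWNT/CpG against CpG, 0 to 1 against CpG+SWNT/LP and 1 to 2 for CpG+SWNT/LP against SWNT/LP. Between the lines it gave 1 to 4 for CpG, 0 to 2 for SWNT/LP, 3 to 6 for CpG+SWNT/LP and 6 to 9 for untreated cells. Where a group was left with 1 library, that library was assumed to vary like the other groups. Depth limits Batf, at 36 reads or fewer in any library, and Fosb and K-Luc Fos and Atf3, at 8.18 CPM or lower.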
